A study of Mus musculus with 4 samples.

Results

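The cytosolic ribosomal protein genes were taken as a housekeeping group and located against the lamina-associated domains (LADs) of mouse hepatocytes. They were chosen by symbol alone, as the protein-coding genes named Rpl or Rps followed by digits and at most one of the letters a, l, x or y, and no LAD was used in choosing them. The rule found 76 of 22367 protein-coding genes on chromosomes 1 to 19, X and Y of the mm9 annotation, with 45 genes of the large and 31 of the small subunit. LADs are stretches of the genome in contact with the nuclear envelope (NE). They were mapped by DamID, in which a bacterial adenine methylase (Dam) fused to lamin B1 marks GATC sites of the DNA near it, and Dam on its own serves as the control for how accessible each stretch is.

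Primary hepatocytes came from mice aged 12 to 16 weeks that were either WT or knockouts of *Tm7sf2* (also called NET47), which encodes a sterol reductase. By the paper's account this protein has a pool in the NE, while its main pool in most cell types is in the endoplasmic reticulum. The cells of each genotype were incubated for 24 h with a lentivirus carrying LaminB1-Dam or control Dam, which gave 4 libraries, 1 for each genotype and construct, each from the DNA of 4 mice. All were kept in serum-free medium with dexamethasone, insulin and epidermal growth factor, and only a part of the cells took up the virus. The knockout is constitutive, so hepatocytes had lacked the protein throughout the life of the animal. There were no replicate libraries, so no difference between WT and KO carries an error between animals or a p-value, and genes are not replicates. The deposited lists hold positions only, without a signal or a read number, so the depth behind each LAD is unknown. By the study's own account the KO was sequenced to a lower depth than WT, while the KO list holds more and shorter LADs, and the part of depth in the results was not tested. Expression was not analysed here, so the labelled cell type was not checked against its markers.

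Each ribosome has a small subunit, which decodes the mRNA, and a large subunit, which joins the amino acids, and each subunit is built from ribosomal RNA and a set of proteins, most of them encoded by a single active gene. These genes are short, are transcribed at a high rate in nearly every cell, and their mRNAs begin with a run of pyrimidines by which translation is tuned to nutrients and growth signals. LADs in most cell types are poor in genes and hold mainly genes of low activity. A few ribosomal protein genes have a related gene elsewhere in the genome, here those with a symbol ending in l. Many more have silent copies known as processed pseudogenes.

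Ribosomal protein genes lay almost wholly outside the LADs in both genotypes. A WT LAD overlapped 2 of the 76 genes (2.63%, 95% Wilson interval 0.725% to 9.10%), against 30.4% of all protein-coding genes. A KO LAD also overlapped 2 (2.63%, with the same interval), against 41.7% of all protein-coding genes. These intervals cover counting error only. Longer genes meet a LAD more often, so genes with spans of at most 42.6 kb, the length of the longest member, were also counted. Of these 16795 genes, 27.4% overlapped a WT LAD and 35.9% a KO LAD. Their median span of 9.12 kb was still longer than the 3.24 kb of the members. By the transcription start alone, which does not depend on length, 2 members lay in a WT LAD (2.63%, against 22.7% of all protein-coding genes). In KO this held for 1 member (1.32%, against 32.8%). Both ribosomal protein genes in LADs, *Rpl10l* and *Rpl39l*, had symbols ending in l, and every one of the other members was outside the LADs of WT and KO alike. 

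Genes were then classed by the differential regions (DRs), which are stretches of at least 10 kb found in the LADs of one genotype only. A gene was called IP (interior in WT, peripheral in KO) if it overlapped a KO-only DR, PI (peripheral in WT, interior in KO) if it overlapped a WT-only DR, and AMB if it overlapped both. The rest were PP if in LADs of both genotypes and II otherwise. No ribosomal protein gene was called IP, where 17.1% of all protein-coding genes were, and none was called PI, where 5.43% were. None was AMB either, against 2.96% of all genes. A count of 0 of 76 allows a share of up to 3.95% for each class, taken as 3 counts of 76, and the upper Wilson limit is 4.81%. Among the 16795 genes with spans of at most 42.6 kb, 12.8% were IP, 3.85% PI and 0.226% AMB. The IP share of these genes was above both limits, while their PI and AMB shares were below them, so the absence of PI and AMB calls did not set the members apart from genes no longer than the longest member, whose median span was 9.12 kb. The 2 genes in LADs were PP and the other 74 were II, or 97.4% of the members against 56.6% of all protein-coding genes.

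**Figure D1:**
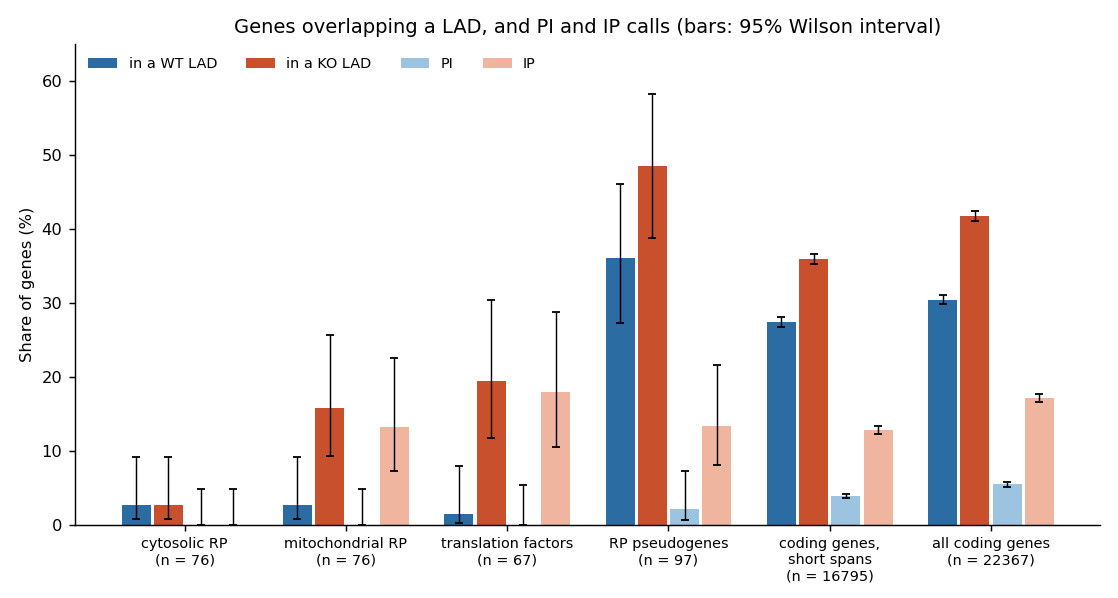
Share of genes (%) that overlapped a WT LAD or a KO LAD or were called PI or IP, for 6 gene lists, with 95% Wilson intervals as error lines. The cytosolic ribosomal protein genes stand at 2.63% for both LAD lists with no PI or IP call, while the pseudogenes stand at 36.1% (WT) and 48.5% (KO).

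*Rpl10l* encodes a relative of the large subunit protein Rpl10 and is known for its use in the testis, where it stands in for the X-linked gene during meiosis. It has 1 exon and lies on the minus strand of chromosome 12 (chr12:67384368-67385388). In WT it was buried in a LAD of 3563 kb (chr12:66663445-70226375), 720.9 kb from the nearer border. In KO it was again wholly inside a LAD, but one of 218.1 kb (chr12:67233309-67451436), with 66.0 kb between the gene and the nearer border. The 1 Mb around its start was 100% LAD in WT and 88.3% in KO, the highest value of any member in both genotypes.

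*Rpl39l*, the relative of the large subunit gene *Rpl39* and also known from male germ cells, has 3 exons on the plus strand of chromosome 16 (chr16:10170319-10175004). The whole gene lay in a WT LAD of 164.2 kb that it shared with *Atf7ip2*. In KO a gap of 8050 bp (chr16:10162599-10170648) opened in that stretch between LADs of 52.9 kb and 80.7 kb, and the gap took in the start and the first 330 bases of the gene, leaving 93.0% of the span in a LAD. The border lay in an intron of *Rpl39l*, and 1 of the 3 exons was wholly in the KO LAD. All 8050 bases were LAD in WT, but a stretch this short falls below the 10 kb asked of a DR, so the gene stayed PP. The gap was also close to 8001 bp, the shortest between neighboring LADs in the KO list. The sequence at that KO border is shown because it is the only LAD border within a member, with 30 bases of the plus strand of mm9 and the GATC site at the border in capitals:
Rpl39l, KO border, chr16:10170633-10170662: caatttccttttaGATCtttgtagtggttt

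The other members with a symbol ending in l were not in LADs. *Rpl3l*, a relative of *Rpl3* known from heart and skeletal muscle, lay 1192 kb from a WT LAD and 776.8 kb from a KO LAD. *Rps27l*, a relative of *Rps27* known as a target of p53, lay 1104 kb and 98.9 kb away. Of these 4 genes, 2 were thus peripheral and 2 interior in both genotypes.

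Outside the LADs, the distance of ribosomal protein genes to the nearest LAD ranged from 4.03 kb to 4318 kb in WT and from 1.14 kb to 1281 kb in KO. The median distance over the 76 members was 381.1 kb in WT (quartiles 83.7 kb and 1184 kb) and 103.4 kb in KO (quartiles 23.3 kb and 422.1 kb). For all protein-coding genes the medians were 95.02 kb and 13.3 kb. A WT LAD lay within 10 kb of 4 members, the 2 in LADs included (5.26%, against 35.0% of all protein-coding genes), and a KO LAD lay within 10 kb of 13 (17.1%, against 48.6%). Within 100 kb the counts were 22 members in WT (28.9%, against 50.6%) and 38 in KO (50%, against 69.5%). At the other end, 23 members had no WT LAD within 1 Mb (30.3%, against 14.0%), and 4 members had no KO LAD within 1 Mb (5.26%, against 0.747%).

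The median distances were near those of interior genes. Among the 12518 protein-coding genes outside the LADs of both genotypes, the median distance was 401.2 kb in WT and 119.0 kb in KO, and among the 74 members outside LADs it was 391.5 kb and 114.3 kb. The members were spread more widely, with lower quartiles of 90.95 kb in WT and 24.6 kb in KO against 130.4 kb and 37.2 kb for the interior genes, and with upper quartiles of 1189 kb in WT and 426.3 kb in KO against 946.8 kb and 303.8 kb for the interior genes. No KO LAD lay within 1 Mb of 5.41% of the 74 members (95% Wilson interval 2.12% to 13.1%), against 1.33% of the interior genes, and no WT LAD within 1 Mb of 31.1% (21.7% to 42.3%), against 23.6%.

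**Figure D2:**
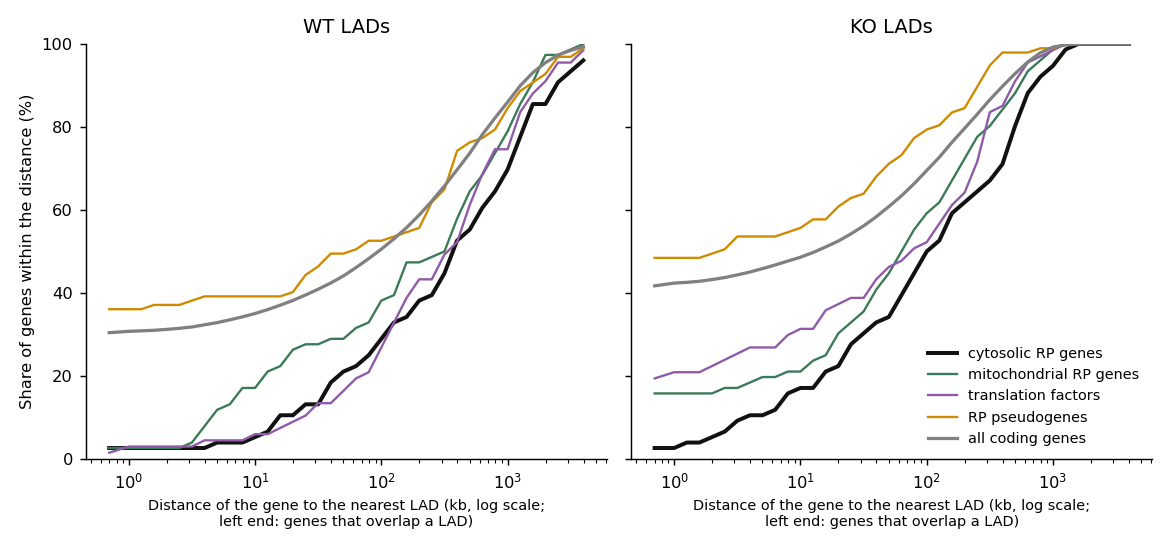
Cumulative share of genes (%) within a given distance (kb, log scale) of the nearest WT LAD (left) or KO LAD (right), for 5 gene lists, with genes that overlap a LAD at the left end of each line. The cytosolic ribosomal protein genes start at 2.63% in both panels and reach 50% at 100 kb only for the KO LADs, below the line of all coding genes throughout both panels up to 1 Mb.

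A KO LAD came within 10 kb of 11 members without reaching them. These were picked by their KO distance, so their shorter distance in KO than in WT is not a result of its own. *Rpl7*, a large subunit gene on chromosome 1 (chr1:16091376-16094743, minus strand), was the closest. Its nearest WT LAD lay 49.6 kb beyond its 3′ end and its nearest KO LAD only 1.14 kb beyond it. *Rps20* on chromosome 4 (chr4:3758481-3762812, minus strand), a small subunit gene, had a WT LAD 10.5 kb upstream of its start and a KO LAD of 459.0 kb beginning 2.05 kb upstream. *Rps27a* on chromosome 11, which encodes a fusion of ubiquitin and a small subunit protein, went from 55.8 kb in WT to 3.01 kb in KO. *Rps6* on chromosome 4, whose protein is the best known phosphorylation target of S6 kinase, lay 87.0 kb from a WT LAD and 3.11 kb from a KO LAD, in this case a LAD of 15.4 kb where WT had none. None of these KO LADs reached the gene, and for *Rps20*, *Rps27a* and *Rps6* the distance was of the order of the gene span, whose median was 3.24 kb over all members.

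*Rps23* and *Rpl34* sat in narrow openings between KO LADs. *Rps23*, a small subunit gene of the decoding centre on chromosome 13 (chr13:91062727-91064329, plus strand), lay in a LAD-free stretch of 140.7 kb in WT and of 10.7 kb in KO, with 1.67 kb free on its 5′ side and 7.45 kb on its 3′ side. *Rpl34*, a large subunit gene on chromosome 3 (chr3:130429749-130433316, minus strand), lay in a LAD-free stretch of 65.5 kb in WT and of 11.1 kb in KO, with 3.72 kb and 3.82 kb free on its sides. In the lists no 2 neighboring LADs of either genotype lay closer than 8001 bp, so an opening narrower than that could not have been seen. The smallest LAD-free stretch around a member was 10.7 kb in KO and 51.4 kb in WT, and stretches under 50 kb held 4 members in KO (*Rps23*, *Rpl34*, *Rpl36a* and *Rps27a*) and none in WT. Of the 74 members outside LADs this was 5.41% in KO (95% Wilson interval 2.12% to 13.1%), against 3.31% of the 12518 protein-coding genes outside the LADs of both genotypes, and in WT 0%, against 1.15%, so neither count stood apart from the background.

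The borders that flank these genes are shown as 30 bases of the plus strand of mm9 with the GATC site in capitals, since Dam marks such sites. A GATC site lay at 98.9% of all WT LAD borders and at 99.5% of all KO LAD borders:
Rps23, KO border on the 5′ side, chr13:91061039-91061068: ccttcctactcaaGATCcaggcctcaaaaa
Rps23, KO border on the 3′ side, chr13:91071761-91071790: tacaatatattcaGATCatgctttccccct
Rpl34, KO border on the 3′ side, chr3:130426013-130426042: tttctttctcactGATCtcctgcaggatgg
Rpl34, KO border on the 5′ side, chr3:130437116-130437145: gttgtcatgtgcaGATCtagatttagatgt
Rpl7, KO border, chr1:16090223-16090252: cagatgctttagaGATCaagagcttactgc
Rps20, KO border, chr4:3764842-3764871: cccagagttgggcGATCagaggcagggggc
None of these borders lay in another protein-coding gene. Counted per span, GATC sites ranged from 0 to 93 among the members, and the middle value was 8. Only *Rps21* had no such site, and it lay 439.4 kb from a WT LAD and 364.6 kb from a KO LAD. The median member span of 3.24 kb was shorter than the shortest LAD of 10 kb. Whether the number of sites affected the LAD calls was not tested.

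**Figure D3:**
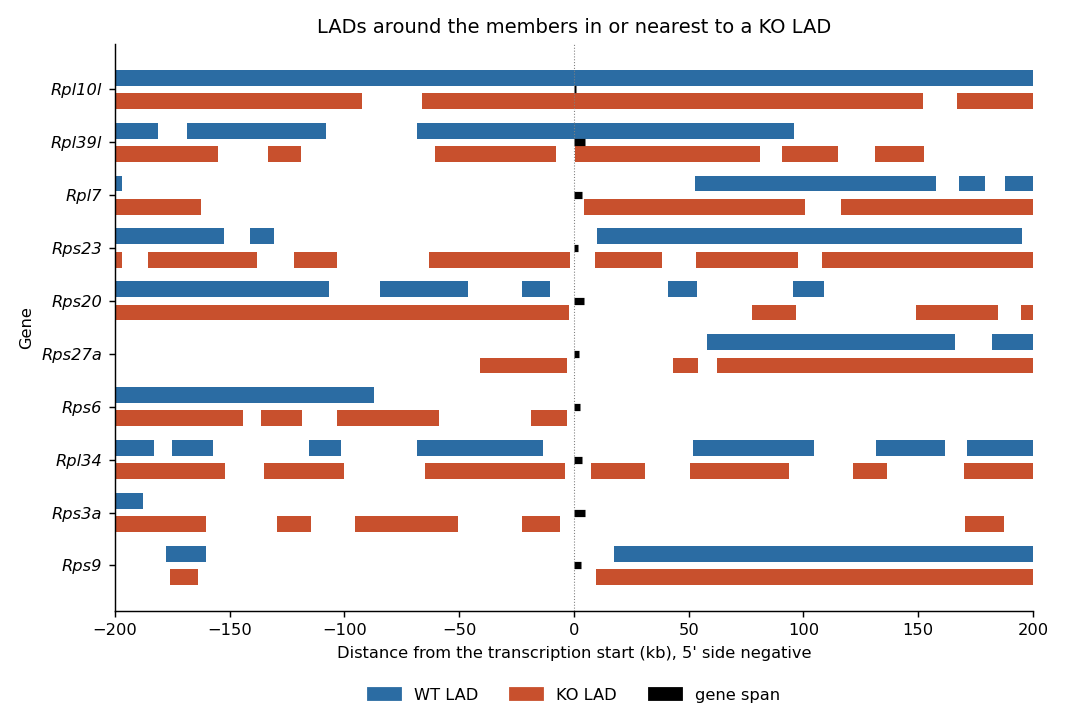
WT LADs (blue) and KO LADs (red) within 200 kb on either side of the transcription start of the 2 members in LADs and the 8 other members nearest to a KO LAD, with gene spans in black and the 5′ side at negative distances (kb). KO LADs end next to *Rpl7*, *Rps23*, *Rps20*, *Rps27a*, *Rps6* and *Rpl34* without covering them, and the KO gap at the start of *Rpl39l* lies inside a WT LAD.

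The other 5 members within 10 kb of a KO LAD were *Rps3a* (187.6 kb in WT, 5.86 kb in KO), *Rps9* (14.8 kb and 6.58 kb), the X-linked *Rps4x* (393.5 kb and 6.64 kb), *Rps29* (32.3 kb and 7.54 kb) and *Rpl27a* (15.6 kb and 8.70 kb). Of the 11, 8 encode small subunit proteins, and the small subunit has 31 of the 76 genes, a difference that was not tested. The KO LAD lay on the 5′ side of 7 of them and on the 3′ side of 4. Over all 74 members outside LADs the nearest KO LAD was on the 5′ side for 41 and on the 3′ side for 33, and the nearest WT LAD for 43 and 31.

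In WT the farthest members were *Rpl11* at 4318 kb, *Rpl10a* at 4226 kb, *Rps10* at 4094 kb, *Rpl4* at 3735 kb and *Rpl12* at 3318 kb from a LAD. In KO the farthest were *Rpl23* at 1281 kb, *Rpl19* at 1146 kb, *Rpl4* at 1107 kb, *Rpl13* at 1023 kb and *Rps25* at 839.0 kb. *Rpl4*, whose protein lines the exit tunnel of the ribosome, was the only gene among the 5 farthest in both genotypes. *Rpl10a* and *Rps10* lie 691.8 kb apart on chromosome 17 and *Rpl19* and *Rpl23* 244.3 kb apart on chromosome 11, so each pair shares its surroundings. In all, 11 members lay within 1 Mb of another.

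Most members were nearer to a LAD in KO than in WT, as were most interior genes. Counting differences of at least 1 kb, 62 of 76 members were closer to a LAD in KO (81.6%, against 59.5% of all protein-coding genes) and 11 were farther (14.5%, against 10.5%). A gene inside a LAD in both genotypes cannot differ in distance, so the counts were repeated over genes outside the LADs of both. Here 83.8% of 74 members were closer in KO, against 82.3% of 12518 protein-coding genes, and 14.9% were farther, against 15.0%. Ribosomal protein genes therefore stood near the background in the direction of the difference. Among the same genes a KO LAD lay within 10 kb of 14.9% of the members, with a 95% Wilson interval of 8.51% to 24.7%, against 10.1% of the protein-coding genes, a value within that interval. The count of closer members rested on short LADs: with LADs of at least 50 kb alone, 29 members were closer in KO and 42 farther. Of the 74 members outside these longer LADs in both genotypes this was 39.2% closer and 56.8% farther, against 47.2% and 49.0% of 15165 such protein-coding genes.

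The largest shifts toward a LAD, by the log2 ratio of the KO to the WT distance with 1 kb added to each, were those of *Rpl26* (1445 kb in WT and 22.0 kb in KO, log2 ratio −5.98), *Rps4x* (−5.69), *Rpl14* (688.3 kb and 15.5 kb, −5.39), *Rpl7a* (2295 kb and 70.7 kb, −5.00) and *Rpl9* (1383 kb and 43.2 kb, −4.97). *Rpl26* binds the p53 mRNA in addition to its place in the large subunit, and *Rps4x* is the X-linked member of a pair whose partner is Y-linked in humans. Away from a LAD, the largest shifts were those of *Rps15a* (31.7 kb in WT and 121.6 kb in KO, log2 ratio 1.91), *Rpl37a* (4.03 kb and 16.9 kb, 1.83), *Rps24* (70.6 kb and 99.9 kb, 0.49), *Rpl21* (189.6 kb and 237.1 kb, 0.32) and *Rps12* (20.4 kb and 25.7 kb, 0.32). *Rpl37a* on chromosome 1 (chr1:72757834-72760383, plus strand) was thus the member nearest to a WT LAD without touching one, and its 5′ neighbor LAD ended 12.9 kb farther away in KO. Both borders are shown in the same form as above:
Rpl37a, WT border, chr1:72753788-72753817: ttacagtattttaGATCcaaactcttccac
Rpl37a, KO border, chr1:72740906-72740935: tctagtcctagggGATCtctctaggcacaa
The KO border lay in the gene *Ankar*, the WT border in no protein-coding gene.

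**Figure D4:**
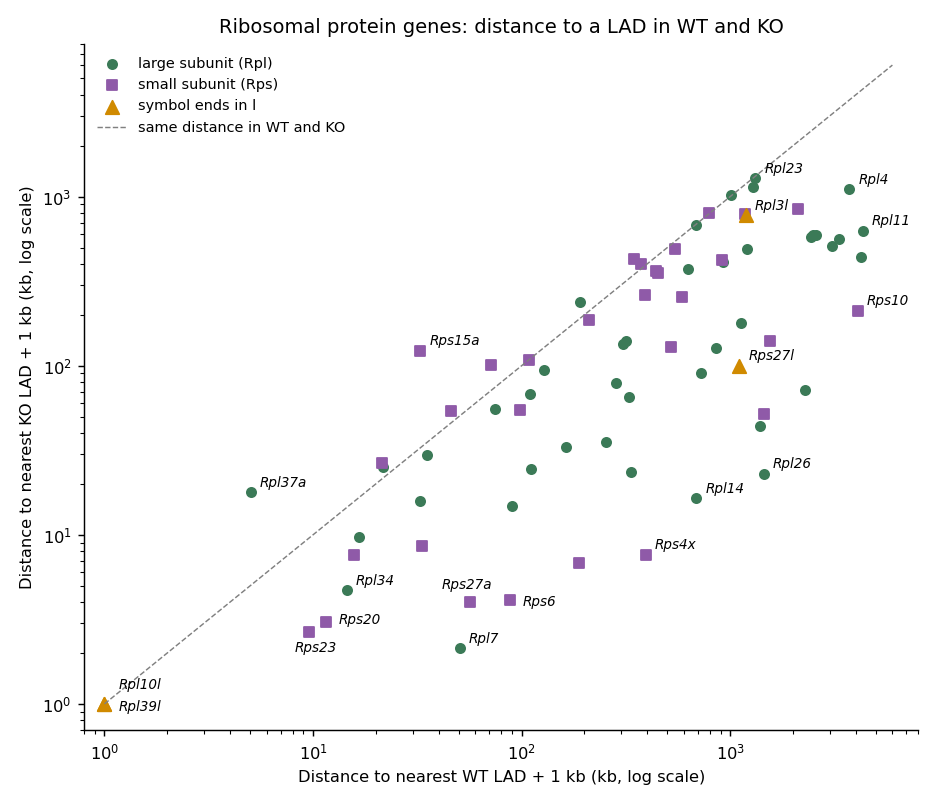
Distance of each of the 76 members to the nearest WT LAD (horizontal) and KO LAD (vertical), in kb with 1 kb added, on log scales, with symbols for the subunit and for symbols ending in l. Points below the dashed line are nearer to a LAD in KO, as were 62 members by at least 1 kb, and *Rpl10l* and *Rpl39l* lie in the lower left corner because they overlap a LAD in both genotypes.

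The wider surroundings of the members were also poorer in LADs than those of all protein-coding genes, though not than those of other interior genes. Of the 1 Mb around each start, LADs covered on average 17.5% in WT and 22.0% in KO, with medians of 3.99% and 9.47%. Around all protein-coding genes the means were 33.8% and 37.3%. Over genes outside the LADs of both genotypes, the means were 15.9% in WT and 20.8% in KO for the 74 members and 13.1% and 16.6% for the 12518 protein-coding genes. The difference between KO and WT averaged 4.49 percentage points around the members and 3.49 around all protein-coding genes, but the medians had the other order, 1.60 points and 2.29 points. Coverage was higher in KO around 44 members (57.9%, against 63.0% of all protein-coding genes), lower around 17 (22.4%, against 29.4%) and equal around 15, and in those 15 both values were 0%. It ranged from 27.2 points lower in KO, around *Rps15a*, to 45.7 points higher, around *Rpl36a* on the X chromosome.

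Coverage was lowest at the genes themselves, which in part restates that 74 of the 76 spans lay outside LADs in both genotypes. The profile was not computed for other interior genes. In the 20 kb bin that begins at the start, LADs covered 3.43% of the bases in WT and 6.46% in KO, and in the 20 kb just upstream 5.02% and 11.3%. At distances beyond 900 kb the values were 32.8% in WT and 36.0% in KO. For all protein-coding genes the 20 kb on both sides of the start averaged 25.7% in WT and 34.2% in KO, and the values beyond 900 kb were 42.0% and 43.4%.

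**Figure D5:**
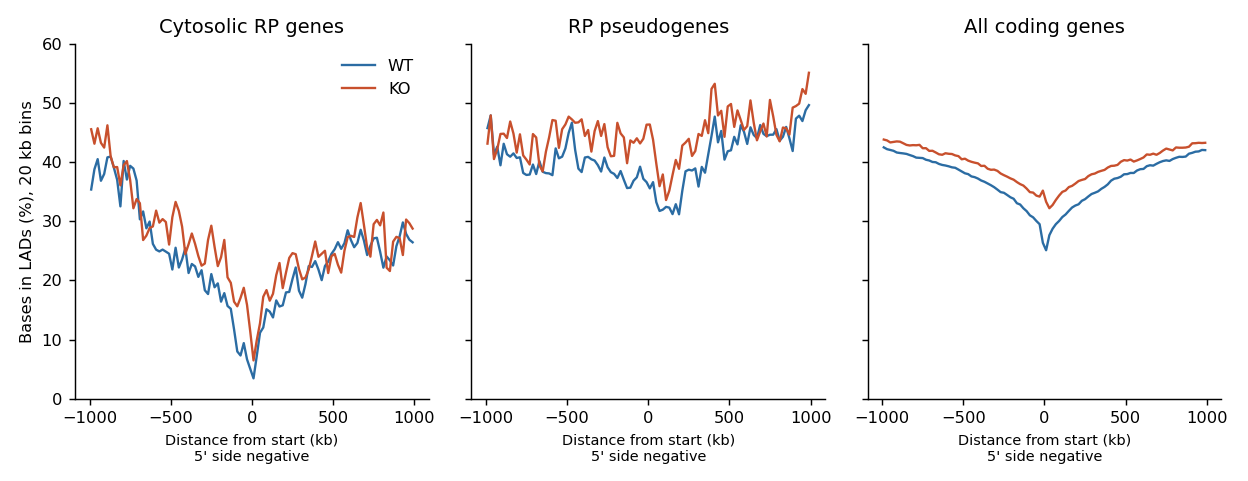
Share of bases in LADs (%) in 20 kb bins up to 1000 kb on either side of the transcription start in WT (blue) and KO (red), for the ribosomal protein genes, their pseudogenes and all coding genes. Around the ribosomal protein genes both lines drop to their lowest bin at the start (3.43% in WT, 6.46% in KO), whereas around the pseudogenes no bin is below 31.2% in WT or 33.6% in KO.

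By subunit, the 45 large subunit genes had a median distance of 624.9 kb in WT and 89.8 kb in KO, and the 31 small subunit genes of 372.8 kb and 121.6 kb. Of the large subunit genes 39 were closer to a LAD in KO and 4 farther, and of the small subunit genes 23 and 7. Over all protein-coding genes 59.5% were closer and 10.5% farther. Over those outside the LADs of both genotypes the shares were 82.3% and 15.0%, and a difference between the subunits was not tested. For 10 of the members linked to Diamond-Blackfan anemia, a failure of red cell production, the medians were 564.8 kb in WT and 231.9 kb in KO. That list is not complete and leaves out *Rps29*, which is also linked to the disease and lay 7.54 kb from a KO LAD. *Rpl5* and *Rpl11*, which with 5S rRNA form the particle that restrains Mdm2, lay 315.7 kb and 4318 kb from a WT LAD and 140.0 kb and 629.3 kb from a KO LAD. The 4 X-linked members (*Rpl10*, *Rpl36a*, *Rpl39* and *Rps4x*) were all closer in KO, with medians of 181.8 kb in WT and 19.3 kb in KO. All lay outside LADs, where 82.3% of 12518 protein-coding genes were also closer in KO, and a difference from these was not tested. No member lay on chromosome 19 or Y.

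The other genes of the translation machinery were counted by symbol in the same way. Among cytosolic ribosomal protein genes outside the symbol rule, *Rplp0*, *Rplp1*, *Rplp2*, *Rpsa* and *Fau* were II, with distances from 244.5 kb (*Rpsa*) to 1638 kb (*Fau*) in WT and from 28.8 kb (*Rpsa*) to 901.8 kb (*Fau*) in KO. *Rplp0*, *Rplp1* and *Rplp2* form the stalk of the large subunit. The 76 mitochondrial ribosomal protein genes, which serve the ribosomes of the organelle, overlapped a WT LAD in 2 cases (2.63%, against 30.4% of all protein-coding genes) and a KO LAD in 12 (15.8%, against 41.7%), and 10 of them were IP (13.2%, 95% Wilson interval 7.31% to 22.6%, which holds the 17.1% of all protein-coding genes). *Mrps30* and *Mrps33* were covered over the whole span (100%) by KO LADs. No WT LAD overlapped either gene, but one lay 2.78 kb from *Mrps30* and one 3.84 kb from *Mrps33*. Of 67 genes with a symbol of Eif or Eef and a digit, 1 overlapped a WT LAD (1.49%) and 13 a KO LAD (19.4%), and 12 were IP (17.9%, near the 17.1% of all protein-coding genes). *Eef2k* has 2 entries in the annotation and counts as 2 of the 67. This group also takes in kinases (*Eef2k*, *Eif2ak2*) and Argonaute genes (*Eif2c1*, *Eif2c2*) and had a median span of 17.96 kb, longer than that of the ribosomal protein genes. *Eif3f*, a subunit of initiation factor 3 with a span of 8.54 kb, lay 0.753 kb from a WT LAD and wholly inside a KO LAD. Of the 5 RNA polymerase I subunit genes, *Polr1b* was IP and the others were II.

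Ribosomal protein pseudogenes, copies of these mRNAs placed in the genome by retrotransposition, were counted in the same way. Of 97 with a symbol of the form Rpl or Rps and a -ps number, 35 overlapped a WT LAD (36.1%, 95% Wilson interval 27.2% to 46.0%, against 30.4% of all protein-coding genes) and 47 a KO LAD (48.5%, 38.8% to 58.3%, against 41.7%). By the start alone, which does not depend on length, 36.1% lay in a WT LAD (27.2% to 46.0%, against 22.7% of all protein-coding genes) and 46.4% in a KO LAD (36.8% to 56.3%, against 32.8%). There were 13 IP pseudogenes (13.4%, against 17.1%) and 2 PI (2.06%, against 5.43%), and 32 were PP and 50 II. Their median distances were 57.1 kb in WT and 2.49 kb in KO. The PP share was 33.0% (24.4% to 42.8%), against 17.9% of all protein-coding genes, and both median distances were shorter than the 95.02 kb and 13.3 kb of all protein-coding genes. The pseudogenes had a median span of 0.474 kb.

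The surroundings and contents of the members were described as well. The 100 kb around the start had a median GC content of 46.7% for the members and 44.2% for all protein-coding genes, and a median of 20 and of 15 other protein-coding genes started within 500 kb. Among genes outside the LADs of both genotypes the medians did not set the members apart, with 46.8% GC and 20 neighbors for the members and the same values for all such protein-coding genes. The 11 members within 10 kb of a KO LAD stood in surroundings of a median 43.5% GC with 9 such neighbors, and the 63 members farther out in surroundings of 47.5% GC with 23 neighbors. The part of base composition and gene density in these distances was not tested. A snoRNA gene, which guides the modification of ribosomal RNA, lay within 20 of the members (28 snoRNA genes in all). Hosts had median distances of 917.6 kb in WT and 278.6 kb in KO, and the 56 other members of 338.7 kb and 83.9 kb. 

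Start sequences were searched for the pyrimidine run known of this gene class. In the RefSeq promoter sequences (build GRCm38.p6, of which no position was used), 57 of the 76 members had an entry. Within 15 bases on either side of a listed start, a run of at least 8 bases that were all C or T occurred on the sense strand in 25 of these 57 (43.9%), against 13.9% of 27025 genes, and on the other strand in 3 (5.26%, against 15.3%). The starts of both members in LADs are shown beside those of interior members with each run of at least 8 in capitals, 30 bases each from 15 bases before the start:
Rpl10l, PP: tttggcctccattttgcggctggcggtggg
Rpl39l, PP: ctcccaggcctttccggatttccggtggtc
Rps6, II: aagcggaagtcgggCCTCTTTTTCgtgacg
Rps10, II: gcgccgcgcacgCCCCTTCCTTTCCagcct
Rpl7a, II: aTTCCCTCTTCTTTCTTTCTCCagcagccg
Rps15a, II: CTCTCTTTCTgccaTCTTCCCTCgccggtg
Neither *Rpl10l* nor *Rpl39l* had a run of 8, with longest runs of 5 and 7. All interior starts shown here have such a run and were picked after this was known, so they give no contrast with the members in LADs. Many interior members had none either, among them *Rps23*, whose longest run was 6.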

How the data were processed

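DamID libraries of WT and *Tm7sf2*-KO hepatocytes, 1 of LaminB1-Dam and 1 of control Dam per genotype, were processed by the authors before deposit. Reads were mapped to mm9, a log2 ratio of the fusion over the Dam control was computed per *DpnI* fragment, and LADs were called with DNAcopy at default settings. The submitters' processing notes also name BWA and limma, without versions. The deposited files hold the start and end of each LAD (8107 in WT, 16076 in KO) and of each DR, with no score. Subtraction of one LAD list from the other, with a minimum length of 10 kb, gave all 7787 WT-only and 8208 KO-only DRs with identical borders. The shortest LAD was 10 kb and the shortest gap between LADs 8001 bp, so the lists cannot show an opening of a few kb around a gene.

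Gene spans were those of GENCODE vM1 on NCBIM37, the same assembly as mm9. Overlap meant at least 1 base of the span, and distance the bases between span and nearest LAD. Positions are 1-based. Borders may be off by 1 base. Python 3.11.15, numpy 2.4.6, scipy 1.17.1, pysam 0.24.0 and matplotlib 3.10.9 were used, and the interval steps made 0 errors in a test on simulated data with 500 gene spans. No statistical test was made, because each genotype had 1 pooled library pair.

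The members and the gene lists were chosen with earlier results of these data known. Named genes were all members overlapping a LAD, of the others the 5 nearest and 5 farthest in each genotype, the 5 with the largest shift each way, and all with symbols ending in l. *Rpl5* was named for the particle it forms with *Rpl11*, and *Rpl10* and *Rpl39* as X-linked members. Members within 10 kb of a KO LAD, those in LAD-free stretches under 50 kb, *Rps21*, *Rpl36a*, the printed start sequences and the genes named from other lists were chosen after their values were seen. Expression data and imaging were not analysed here. Some single-gene results are not reported here.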

Additional observations from a re-analysis of the deposited data

How the results depend on the processing

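Of 106 values recomputed for 10 results under other settings, 88 stayed equal (counts of 0) or within a factor of 1.5 and 18 did not. Taking 100 kb centered on the gene in place of its span gave 15 members in WT LADs (19.7%, against 40.7% of all protein-coding genes), 25 in KO LADs (32.9%, against 56.7%), 16 IP (21.1%, against 27.1%) and 1 PI (*Rps15a*; 1.32%, against 9.71%). With gaps of at most 50 kb between LADs closed, there were 6 members in KO LADs (7.89%, against 44.5%) and 4 IP (5.26%, against 16.5%), namely *Rps23*, *Rpl34*, *Rpl36a* and *Rps27a*, the members in LAD-free stretches under 50 kb. Without the genes ending in l, 0 of 72 members overlapped a WT LAD (against 30.4% of all protein-coding genes) and 0 a KO LAD (against 41.7%). By the transcription start, 1 member (*Rpl10l*) was in a KO LAD (1.32%, against 32.8% of all protein-coding genes). With WT-only stretches of any length *Rpl39l* became the 1 PI call, and the share over all protein-coding genes was not computed for this setting. With LADs of at least 20 kb the median distance in KO was 246.8 kb. With LADs of at least 50 kb the median distances were 669.5 kb in WT and 643.4 kb in KO, and 29 members were closer to a LAD in KO and 42 farther, so the direction of these counts turned while the median stayed shorter in KO. A window of 100 kb around the start held 6.37% LAD in WT and 11.4% in KO. Counting differences of at least 10 kb, 6 members were farther in KO, a count not made over all protein-coding genes. The LAD lists carry no read numbers, and the effect of the lower depth of the KO libraries was not tested. No paired analysis was possible because each genotype and construct had 1 library, and no replicate could be left out.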
